A study of Homo sapiens with 12 samples.

Results

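Integrins, collagens, laminins and tetraspanins were examined by RNA-seq in K562 cells after treatment with the USP7 inhibitor FT671. The members are the protein-coding genes whose GENCODE symbol begins with ITGA or ITGB, COL, LAMA, LAMB or LAMC, or TSPAN, each followed by its subunit, chain or member designation, and ITGA2B and ITGB3 were left out by the rule. This gave 106 genes of the 60609 in the count tables, namely 28 integrins, 44 collagens, 12 laminins and 22 tetraspanins. Of the 28 genes with an integrin symbol, 4 do not encode integrin subunits (ITGB1BP1, ITGB1BP2, ITGB3BP and ITGBL1). K562 is an established human line derived from the blast crisis of a chronic myeloid leukemia. FT671 blocks the deubiquitinase USP7. The comparison asked which of these genes changed in 3 samples that received 10 μM FT671 for 48 h (FT671 replicates 1, 2 and 3) relative to 3 samples that received the solvent DMSO (DMSO replicates 1, 2 and 3). Both groups are K562 cells without a labelled genetic change, and a single line, dose and time were measured.

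Integrins are cell-surface heterodimers of an alpha and a beta subunit that bind matrix proteins or counter-receptors outside the cell and the actin skeleton, through talin and kindlin, inside it. Collagens and laminins are their extracellular partners. Collagens are trimers of alpha chains that form fibrils, networks or beaded filaments, and laminins are alpha, beta and gamma chain heterotrimers of basement membranes. Tetraspanins are membrane proteins that gather integrins, immunoglobulin-type proteins and the sheddase ADAM10 into membrane domains. In blood cells, integrins and tetraspanins govern adhesion to bone marrow stroma. K562 cells grow in suspension, and most matrix genes are expressed mainly in stromal cells.

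The libraries held between 4555220 and 14250500 counts, so 3 counts, taken as the smallest detectable level, corresponded to between 0.211 and 0.659 CPM (counts scaled to the library total). This floor covers counting error only. Of the 8 markers of K562 cells, 7 passed the filter on low counts and HBE1 did not, with at most 1.33 CPM. The stromal markers FAP, LUM, PDGFRA and THY1 had 0 counts in all 6 libraries, and the summed level of the 7 stromal markers was 1.94 to 2.59 CPM in DMSO and 0.715 to 1.26 CPM in FT671. TAGLN was the stromal marker that passed the filter, and it was lower in FT671 (log2 fold change -1.48 ± 0.39 SE, adjusted p = 0.00575). TAGLN reached the filter's minimum (about 1.21 CPM) in every DMSO library but, among FT671 libraries, in replicate 2 alone. It thus entered the test through the group where it is higher. The part of the TAGLN shift in the collagen and laminin results was not tested. Because RNA was measured in bulk, fewer cells of a kind and less RNA per cell cannot be told apart.

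The 7 promoter stretches shown come from RefSeq windows and were picked once the values of the members were known. They are those of COL6A2 and COL6A3, the pair of collagen IV genes with a shared start region, COL15A1, and 1 called member each of the integrins, laminins and tetraspanins. PRC1.1, the Polycomb complex in which the study placed USP7, reaches chromatin through KDM2B, whose CxxC domain binds unmethylated CpG dinucleotides, and CpG dinucleotides are therefore in capitals. Each stretch is the 250 bases before the start that RefSeq gives, which differs from GENCODE's outermost start for some genes, 5′ to 3′ on the strand of the gene (GRCh38.p14). COL6A3 (chr2:237414165-237414414, minus strand) and ITGAM (chr16:31259725-31259974, plus strand) are the CpG-poor examples, with 3 and 2 CpG dinucleotides. COL6A2 (chr21:46097862-46098111, plus strand), COL15A1 (chr9:98943657-98943906, plus strand), LAMB2 (chr3:49133051-49133300, minus strand) and TSPAN13 (chr7:16753505-16753754, plus strand) held 28, 38, 12 and 22. The last stretch is the 126 bases between the starts of COL4A1 and COL4A2, which are transcribed away from each other (chr13:110307158-110307283, shown on the strand of COL4A2), and it held 20.
COL6A3: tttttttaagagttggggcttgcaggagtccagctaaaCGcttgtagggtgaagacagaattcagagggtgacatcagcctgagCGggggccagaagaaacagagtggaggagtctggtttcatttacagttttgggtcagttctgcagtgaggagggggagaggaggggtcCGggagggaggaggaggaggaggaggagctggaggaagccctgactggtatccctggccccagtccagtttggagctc
ITGAM: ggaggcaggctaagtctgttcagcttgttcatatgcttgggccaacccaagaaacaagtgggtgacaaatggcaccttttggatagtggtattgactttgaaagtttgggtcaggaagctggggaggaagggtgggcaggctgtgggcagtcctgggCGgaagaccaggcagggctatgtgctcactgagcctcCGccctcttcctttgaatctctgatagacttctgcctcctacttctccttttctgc
COL6A2: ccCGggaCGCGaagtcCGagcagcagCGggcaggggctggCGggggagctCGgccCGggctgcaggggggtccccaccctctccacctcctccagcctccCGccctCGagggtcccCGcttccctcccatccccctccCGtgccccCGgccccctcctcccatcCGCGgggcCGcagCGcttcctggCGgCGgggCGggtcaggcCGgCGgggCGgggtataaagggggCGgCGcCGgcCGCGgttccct
COL15A1: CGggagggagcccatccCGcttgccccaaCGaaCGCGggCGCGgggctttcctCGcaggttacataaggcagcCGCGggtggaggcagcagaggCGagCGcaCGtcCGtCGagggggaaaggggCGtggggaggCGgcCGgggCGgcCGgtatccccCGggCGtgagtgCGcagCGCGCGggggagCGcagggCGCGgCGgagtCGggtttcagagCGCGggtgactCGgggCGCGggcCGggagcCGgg
LAMB2: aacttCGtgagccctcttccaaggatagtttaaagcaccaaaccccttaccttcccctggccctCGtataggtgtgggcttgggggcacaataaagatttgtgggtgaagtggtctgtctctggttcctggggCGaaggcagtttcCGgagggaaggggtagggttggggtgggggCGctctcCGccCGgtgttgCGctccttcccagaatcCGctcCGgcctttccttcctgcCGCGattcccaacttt
TSPAN13: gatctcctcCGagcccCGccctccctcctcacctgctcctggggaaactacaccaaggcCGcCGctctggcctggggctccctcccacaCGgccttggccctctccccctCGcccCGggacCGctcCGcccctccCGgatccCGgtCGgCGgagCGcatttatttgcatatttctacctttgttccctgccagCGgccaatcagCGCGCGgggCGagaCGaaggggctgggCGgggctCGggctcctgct
COL4A1 to COL4A2: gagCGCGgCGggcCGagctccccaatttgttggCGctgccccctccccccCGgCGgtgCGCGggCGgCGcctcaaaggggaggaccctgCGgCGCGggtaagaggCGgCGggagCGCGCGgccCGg

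CpG-poor and CpG-rich windows were both found among the downregulated members. COL6A3 and COL15A1, the most strongly downregulated members, had the sparse and the dense pattern respectively. Over the full windows, which run from 250 bases before the start to 50 after it, the 11 downregulated members had a median of 16 CpG dinucleotides (range 2 to 53). The 5 upregulated members with a window had a median of 30 (range 18 to 47), and the 13 members with a window that were not called had a median of 26 (range 8 to 50). The 9863 promoters of genes that passed the filter had a median of 27. The GC box GGGCGG, searched on both strands, was in the windows of 22 of 29 tested members (75.9%) and in 71.1% of the windows of genes that passed the filter. The sequence TATAAA, also searched on both strands, was in 1 of the 29, COL6A2, and in 5.23% of those windows. The sequence CCAAT on either strand was in 6 of the 29 (20.7%) and in 37.1% of those windows, a difference that was not tested. These counts describe letters and say nothing of binding.

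Of the 106 members, 41 reached the expression needed for testing (about 1.21 CPM in at least 3 libraries) and 65 did not. Among the 41, 11 were downregulated and 8 upregulated upon FT671 treatment at an adjusted p-value under 0.05 (edgeR's quasi-likelihood test, Benjamini-Hochberg adjustment over 13895 genes). These are 26.8% and 19.5% of the members tested, and of all genes tested 26.5% were downregulated and 23.6% upregulated. The members were thus called about as often as genes in general. At a stricter threshold of 1e-05, 2 members were downregulated (COL6A3 and COL15A1) and 1 was upregulated (COL6A1), where 4.13% and 1.79% of all genes were called. COL6A1 reached the minimum for testing in FT671 libraries alone, so it could enter the test only by being higher there.

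**Figure D1:**
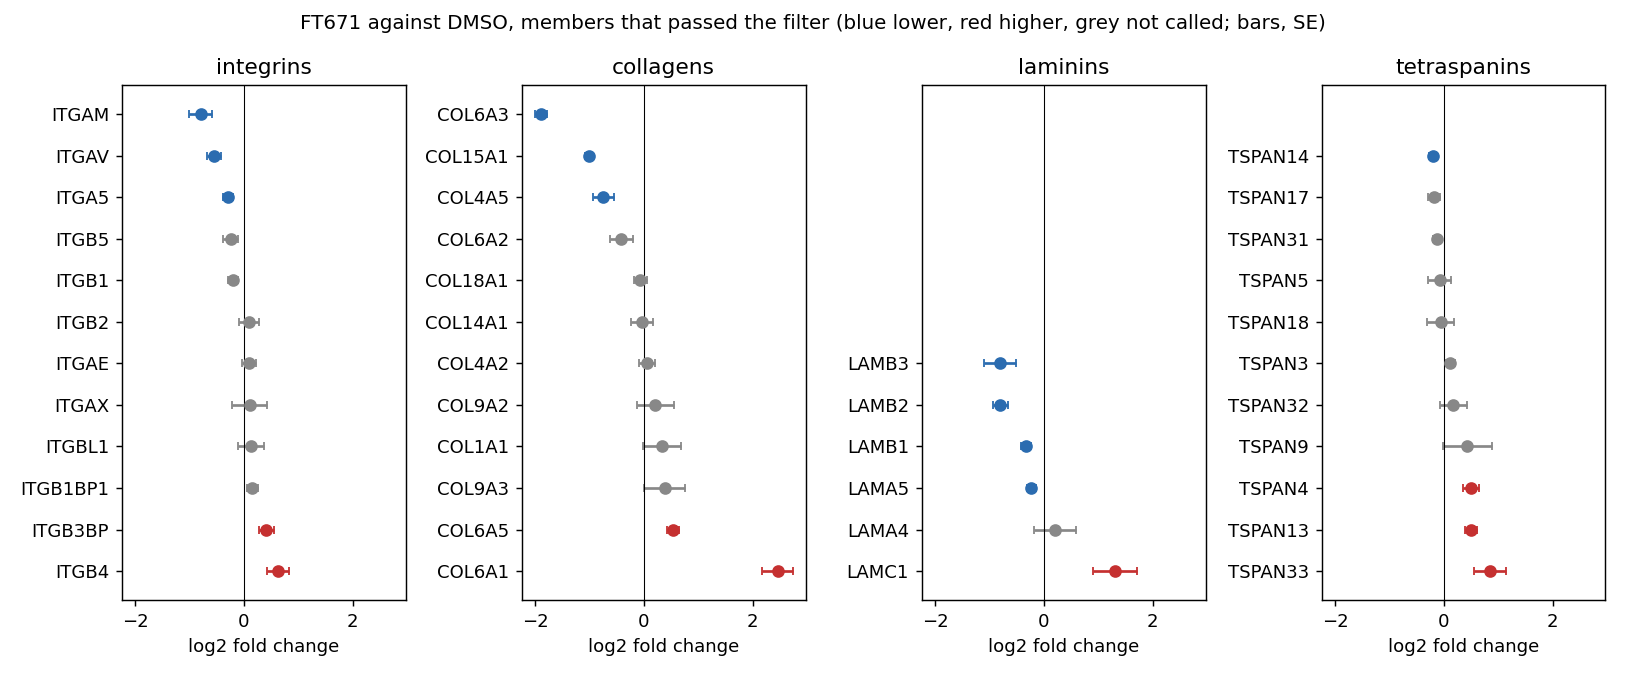
The log2 fold change between FT671 and DMSO (x axis) is plotted for the 41 members that passed the filter, by family, with bars for the SE and colors for the call. Collagens span the widest range, from -1.89 for COL6A3 to 2.46 for COL6A1, and tetraspanins lie between -0.20 and 0.85.

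By family, the counts were as follows. Among 12 integrin-named genes tested, 3 fell (25%) and 2 rose (16.7%), with a median log2 fold change of 0.096. Among 12 collagens, 3 fell (25%) and 2 rose (16.7%, median 0.012). Of the 6 laminins, 4 fell (66.7%) and 1 rose (16.7%, median -0.28). The laminin calls of LAMB3 and LAMA5 were lost in 7 and 10 of 19 alternative fits. Of 11 tetraspanins, 1 fell (9.09%) and 3 rose (27.3%, median 0.12). Of all genes tested 26.5% fell and 23.6% rose, and their median was -0.010. With so few members in a family these are descriptions and no difference between families was tested.

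The summed expression of each family, members below the filter included, showed where the mass of the change lay. The collagen genes together held 276, 273 and 271 CPM in DMSO replicates 1, 2 and 3 and 192, 180 and 181 CPM in FT671 replicates 1, 2 and 3. The laminins summed to 218, 214 and 221 CPM in DMSO and 170, 182 and 173 CPM in FT671. For both families every FT671 library lay below every DMSO library. The integrin genes summed to 525, 521 and 593 CPM in DMSO and 481, 488 and 491 CPM in FT671, also without overlap, whereas the tetraspanins overlapped, with 361 to 376 CPM in DMSO and 365 to 377 CPM in FT671. The collagen sum was dominated by COL15A1, COL18A1 and COL6A3, with mean CPM in DMSO of 118, 53.3 and 49.1. The integrin sum was led by ITGB1, which did not pass the test, with mean CPM of 293 in DMSO and 254 in FT671. ITGA5 followed with 109 and 89.1, a call lost in 5 of 19 alternative fits. The laminin sum was led by LAMB1 (103 and 81.1) and LAMA5 (89.8 and 77.2), and the call of LAMA5 held in 9 of 19. These sums thus reflect a few abundant genes.

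Per kb of exon, the most abundant members in DMSO were TSPAN31 (22.5 CPM per kb), ITGB1 (20.1), COL15A1 (17.7), ITGA5 (14.7) and TSPAN13 (13.1). The most abundant laminin was LAMA5, with 6.29 CPM per kb. COL15A1 dropped to 8.80 CPM per kb in FT671 and TSPAN13 rose to 18.5. LAMC1 and LAMA4 were the least abundant tested members in DMSO, with 0.0956 and 0.108 CPM per kb.

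**Figure D2:**
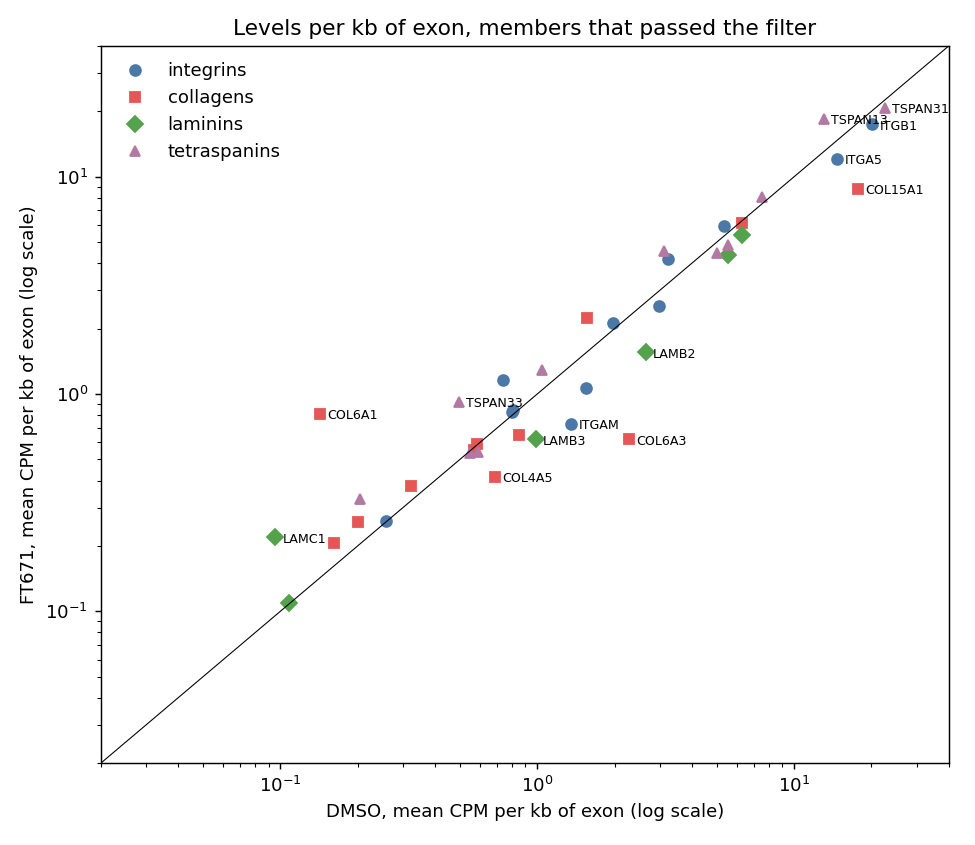
Mean CPM per kb of exon in FT671 (y axis, log scale) is plotted against DMSO (x axis, log scale) for the 41 tested members, with 1 point for each gene, symbols for the family and a line of equality. COL6A1 and LAMC1 lie above the line at low levels, COL6A3 and COL15A1 lie clearly below it, and most other members lie close to it.

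The collagen VI chains moved in different directions. Collagen VI forms beaded microfilaments, and its classical monomer combines the alpha chains encoded by COL6A1, COL6A2 and COL6A3, while COL6A5 and COL6A6 encode chains related to COL6A3. COL6A3 (ENSG00000163359, chr2:237324003-237414328) had 48.2, 48.2 and 50.8 CPM in DMSO replicates 1, 2 and 3 and 15.3, 11.5 and 13.0 CPM in FT671 replicates 1, 2 and 3. Every treated library was below every control library, and COL6A3 was 3.71-fold lower (log2 fold change -1.89 ± 0.12 SE, adjusted p = 5.19e-08). This was the largest fall among the members tested.

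COL6A1 (ENSG00000142156, chr21:45981770-46005050) had 13, 8 and 4 counts in DMSO replicates 1, 2 and 3 and 21, 23 and 52 counts in FT671 replicates 1, 2 and 3. In CPM these were 0.900, 0.733 and 0.739 against 4.66, 4.15 and 4.65, so the groups were far apart and the control level was close to the floor. It was 5.48-fold higher in FT671 (log2 fold change 2.46 ± 0.28 SE, adjusted p = 8.16e-06). COL6A1 remained upregulated at 0.05 in all 17 alternative fits that could test it, but without DMSO replicate 1 or 2 or any of the FT671 replicates its adjusted p lay above 1e-05, at up to 0.000239. With scaling by library totals alone the adjusted p of COL6A1 was also above that threshold.

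COL6A2, the neighbor of COL6A1 on chromosome 21 (chr21:46098112-46132848, same strand), did not follow it. It had 4.50, 5.04 and 4.07 CPM in DMSO and 3.33, 3.61 and 3.40 CPM in FT671. The FT671 libraries were lower without overlap, but the difference did not pass the test (log2 fold change -0.42, 95% interval -0.83 to 0.00, adjusted p = 0.12). COL6A5 had 14.3, 14.7 and 15.9 CPM in DMSO and 20.9, 21.1 and 22.3 CPM in FT671, and was 1.45-fold higher (log2 fold change 0.54 ± 0.12 SE, adjusted p = 0.00169). COL6A6 had 22 counts in all libraries together and was not tested.

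Set side by side per kb of exon, the order of the collagen VI chains changed. In DMSO the mean level was 2.28 ± 0.0710 CPM per kb for COL6A3, 1.56 ± 0.0875 for COL6A5, 0.850 ± 0.0912 for COL6A2 and 0.143 ± 0.0171 for COL6A1 (SD, n = 3). In FT671 COL6A5 led with 2.23 ± 0.0770 CPM per kb, followed by COL6A1 with 0.810 ± 0.0528. COL6A2 and COL6A3 came next with 0.646 ± 0.0272 and 0.618 ± 0.0884, a pair that did not differ beyond its spread. COL6A3 was thus the highest of the 4 chains per kb in DMSO and among the lowest in FT671. This rank depends on the divisor, which counts every annotated exon, 21516 bases for COL6A3 and 5334 to 9581 for the others. In CPM, COL6A3 was second in FT671, with a mean of 13.3 beside 21.4 for COL6A5, 4.49 for COL6A1 and 3.45 for COL6A2.

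COL15A1 (ENSG00000204291, chr9:98943179-99070792) encodes a basement-membrane collagen that carries glycosaminoglycan chains and releases an endostatin-like fragment. It had 114, 120 and 119 CPM in DMSO and 60.4, 56.8 and 58.4 CPM in FT671, with little spread in either group. The level was 2.01-fold lower (log2 fold change -1.01 ± 0.08 SE, adjusted p = 2.38e-07). Without FT671 replicate 2 or 3 the adjusted p lay above 1e-05 but not above 2.07e-05. COL18A1, the other member of the multiplexin class and the source of endostatin, had 62.4, 50.6 and 47.0 CPM in DMSO and 55.5, 53.0 and 46.8 CPM in FT671. Its groups overlapped (log2 fold change -0.07, 95% interval -0.29 to 0.16, adjusted p = 0.66). A total of 1563 bases of COL18A1 exons overlap SLC19A1 on the opposite strand, and whether the authors' counting used strand is not given in the sources used here.

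Among the network-forming collagens, COL4A5 fell and COL4A2 did not pass the test. COL4A5 encodes a chain of the basement-membrane trimer that is mutated in Alport syndrome. It had 8.86, 7.51 and 7.95 CPM in DMSO and 6.22, 3.79 and 4.83 CPM in FT671, each treated library below each control (1.67-fold lower, log2 fold change -0.74 ± 0.20 SE, adjusted p = 0.00621). COL4A2 had 10.4, 12.1 and 11.1 CPM in DMSO and 10.2, 10.8 and 13.0 CPM in FT671 (log2 fold change 0.05, 95% interval -0.24 to 0.35, adjusted p = 0.783). Its usual partner COL4A1, whose start lies 126 bases away as printed with the promoters, was at 0 counts in all 6 libraries, while COL4A2 had 593 counts in all. With a floor of 3 counts, 0 counts allow up to 0.211 CPM in the deepest library, but the count tables do not show why COL4A1 is at 0, and the value may not bound its expression.

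The other tested collagens did not pass the test. COL9A2 and COL9A3, chains of the fibril-associated collagen IX, had log2 fold changes of 0.21 (95% interval -0.46 to 0.88) and 0.38 (-0.35 to 1.12). COL1A1, COL14A1 and these chains had between 0.733 and 6.60 CPM in every library. Of 11 fibrillar collagens COL1A1 alone was tested. COL1A2, which pairs with it in collagen I, had 55 counts in all and COL3A1 had 0. COL5A1 and COL5A2 had 32 and 14 counts, and the other collagens with at least 10 counts in all were COL7A1, COL6A6, COL21A1, COL8A2, COL23A1 and COL25A1. Of the 44 collagen genes, 10 had 0 counts in every library.

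**Figure D3:**
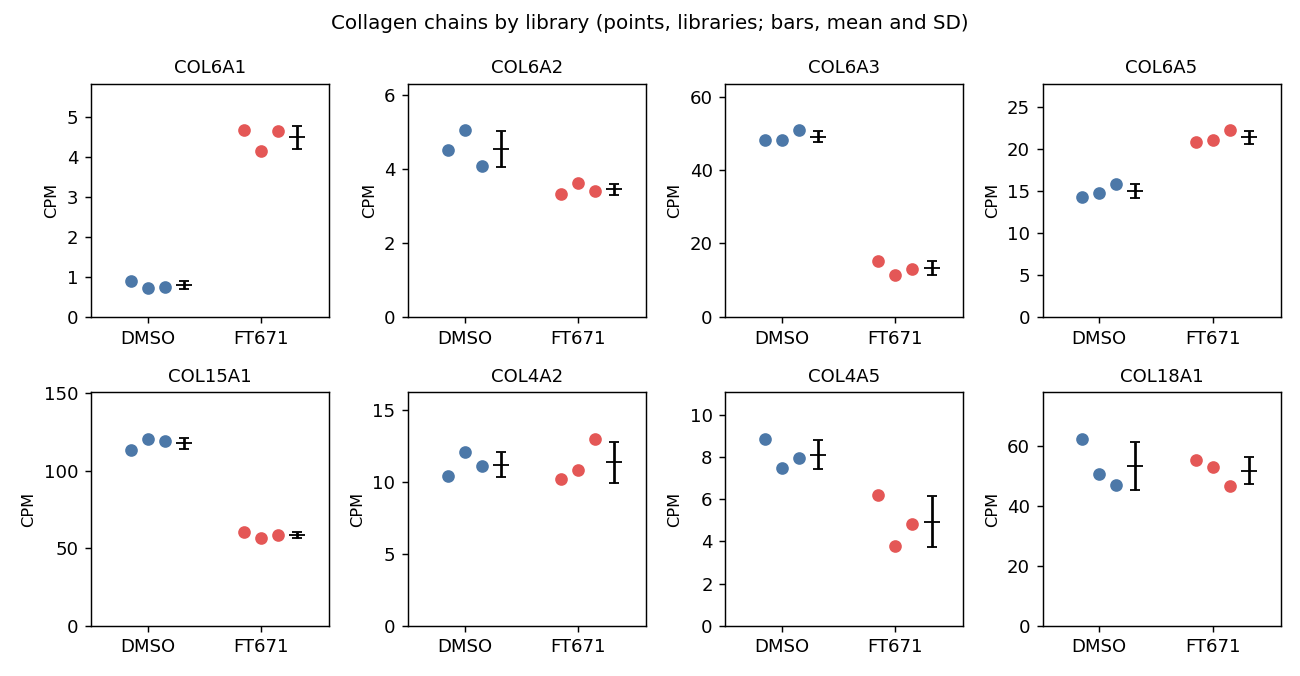
CPM (y axis) is plotted for 8 collagen chains in each DMSO and FT671 library, with black bars for the mean and SD (n = 3). COL6A3, COL15A1 and COL4A5 sit lower in FT671, COL6A1 and COL6A5 sit higher, and COL4A2 and COL18A1 overlap.

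Among the integrin subunits, the alpha chains that fell were ITGAM, ITGAV and ITGA5. ITGAM, the alpha subunit of the myeloid complement receptor Mac-1, had 7.06, 7.60 and 8.50 CPM in DMSO and 4.22, 2.89 and 5.36 CPM in FT671. It was 1.73-fold lower without overlap (log2 fold change -0.79 ± 0.22 SE, adjusted p = 0.00756). ITGAV, which binds vitronectin and other RGD-containing ligands, had 31.3, 25.7 and 33.1 CPM in DMSO and 23.8, 18.6 and 19.5 CPM in FT671. The fall was 1.46-fold, again without overlap (log2 fold change -0.55 ± 0.13 SE, adjusted p = 0.00311).

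ITGA5, the alpha subunit of the fibronectin receptor, had 115, 104 and 107 CPM in DMSO and 100, 80.5 and 86.8 CPM in FT671. It was 1.22-fold lower (log2 fold change -0.29 ± 0.09 SE, adjusted p = 0.0143). The highest treated library was close to the lowest control, and the call was lost without DMSO replicate 1 (adjusted p = 0.0719), FT671 replicate 2 (0.101) or FT671 replicate 3 (0.0706). It was also lost with a correction for gene length (adjusted p = 0.113).

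The beta subunits that pair with these alpha chains and were tested here, ITGB1, ITGB5 and ITGB2, did not pass the test. ITGB1, the partner of ITGA5 and also of ITGAV, was the most abundant integrin, with 270, 276 and 334 CPM in DMSO and 233, 269 and 261 CPM in FT671 (log2 fold change -0.20, 95% interval -0.37 to -0.03, adjusted p = 0.0766). ITGB1 lay near the threshold and passed it in 5 of 19 alternative fits, among them those with library totals alone (adjusted p = 0.045), without a filter (0.0271) and with a correction for GC content (0.00913). ITGB5, a partner of ITGAV, had 18.3, 23.0 and 17.2 CPM in DMSO and 17.1, 15.5 and 17.2 CPM in FT671 (log2 fold change -0.24, 95% interval -0.51 to 0.03, adjusted p = 0.159). Without DMSO replicate 3 it was called lower (adjusted p = 0.0466).

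ITGB2, the partner of ITGAM and ITGAX, had 5.75, 5.68 and 6.28 CPM in DMSO and 6.0, 6.13 and 6.43 CPM in FT671 (log2 fold change 0.09, 95% interval -0.25 to 0.44, adjusted p = 0.685). In DMSO the means of ITGAM and ITGB2 per kb were 1.36 and 0.809 CPM, and in FT671 they were 0.731 and 0.848. ITGAX and ITGAE, further leukocyte alpha subunits, had log2 fold changes of 0.11 (95% interval -0.53 to 0.74) and 0.10 (-0.15 to 0.35). ITGB7, the partner of ITGAE, had 19, 16 and 6 counts in DMSO and 5, 5 and 5 counts in FT671 and was not tested.

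ITGB4 was the integrin subunit that rose. It pairs with ITGA6 to bind laminins in hemidesmosomes. It had 4.15, 6.32 and 4.44 CPM in DMSO and 8.0, 8.12 and 7.33 CPM in FT671, without overlap (1.55-fold higher, log2 fold change 0.63 ± 0.20 SE, adjusted p = 0.0188). The call was lost without DMSO replicate 1 (adjusted p = 0.109) or FT671 replicate 2 (0.058) and after thinning all libraries to the smallest total (0.470).

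Of the integrin-named genes that are not subunits, ITGB3BP rose. ITGB3BP encodes a nuclear protein of the centromere that was first found by its binding to the integrin beta3 tail. It had 15.4, 15.8 and 21.6 CPM in DMSO and 20.9, 25.8 and 21.9 CPM in FT671, with DMSO replicate 3 inside the treated range (1.33-fold higher, log2 fold change 0.41 ± 0.14 SE, adjusted p = 0.028). The call was lost without DMSO replicate 1 (adjusted p = 0.139), DMSO replicate 2 (0.0969), FT671 replicate 2 (0.123) or FT671 replicate 3 (0.0617). ITGB1BP1, an inhibitor of talin binding to the beta1 tail, and the secreted ITGBL1 had log2 fold changes of 0.16 (95% interval -0.04 to 0.35) and 0.13 (-0.34 to 0.60). Exons of ITGB3BP, ITGB1BP1, ITGBL1, ITGAE and ITGA5 overlap genes on the opposite strand by between 48 and 4356 bases.

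The remaining integrin subunits were at low levels. Those with at least 10 counts in all libraries together were ITGA7 (31), ITGA9 (24), ITGA4 (23), ITGAL (18) and ITGA3 (17). ITGA9 had 2, 1 and 2 counts in DMSO and 4, 6 and 9 counts in FT671. ITGA1, ITGA8 and ITGB6 had 0 counts in all 6 libraries.

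The laminin chains were lower in FT671 for each beta chain that could be tested. LAMB2, found in the basement membranes of kidney and neuromuscular junctions, had 19.7, 17.5 and 17.4 CPM in DMSO and 12.4, 9.20 and 10.4 CPM in FT671. Every treated library lay below every control (1.74-fold lower, log2 fold change -0.80 ± 0.14 SE, adjusted p = 0.000378). LAMB1, the widely expressed beta chain, had 98.5, 97.5 and 112 CPM in DMSO and 72.0, 87.0 and 84.3 CPM in FT671. It was 1.26-fold lower (log2 fold change -0.33 ± 0.09 SE, adjusted p = 0.00816). Its exons share 300 bases with DLD on the opposite strand.

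LAMB3, the beta chain of epithelial laminin, had 4.36, 5.50 and 3.88 CPM in DMSO and 2.89, 3.97 and 1.79 CPM in FT671, with FT671 replicate 2 inside the control range (log2 fold change -0.80 ± 0.29 SE, adjusted p = 0.0311). The call was lost without DMSO replicate 1 (adjusted p = 0.0568), DMSO replicate 2 (0.136), FT671 replicate 1 (0.0571) or FT671 replicate 3 (0.272). It was also lost with DESeq2's Wald test (0.0921) and after thinning to the smallest total (0.243). A correction for GC content with a term for replicate number removed it too (0.06285). LAMA5, an alpha chain of many adult basement membranes, had 93.1, 92.2 and 84.1 CPM in DMSO and 79.5, 79.2 and 72.9 CPM in FT671 (log2 fold change -0.23 ± 0.08 SE, adjusted p = 0.0309). LAMA5 stayed below 0.05 in 9 of 19 alternative fits. It was lost without DMSO replicate 1 (adjusted p = 0.119) or 2 (0.0983), without FT671 replicate 1 (0.0522), 2 (0.0736) or 3 (0.158), and with DESeq2's Wald test (0.0905). Corrections for gene length (0.438) or GC content (0.141) also removed its call.

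LAMC1 went the other way, at a low level. It encodes the gamma chain shared by most laminins. It had 11, 4 and 7 counts in DMSO replicates 1, 2 and 3 and 8, 12 and 18 counts in FT671 replicates 1, 2 and 3, or 0.762, 0.366 and 1.29 CPM against 1.78, 2.17 and 1.61 CPM. The log2 fold change was 1.31 ± 0.41 SE (adjusted p = 0.0164), with a 95% interval of 0.50 to 2.11. LAMC1 reached the minimum for testing (about 1.21 CPM) in every FT671 library but, among DMSO libraries, in replicate 3 alone. It thus entered the test through the group where it is higher. The call held in 12 of the 14 alternative fits that could test LAMC1. It was lost without FT671 replicate 2 (adjusted p = 0.0645) and with DESeq2's Wald test (0.0546). LAMC1 was not tested with at least 10 counts in each library, after thinning, or without DMSO replicate 1 or 2 or FT671 replicate 3. LAMC3 had 0 counts in all libraries. LAMA4 did not pass the test (log2 fold change 0.21, 95% interval -0.56 to 0.97), and LAMA2 had 13 counts in all.

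Laminin chains were unequal in level. Per kb of exon in DMSO, LAMA5, LAMB1 and LAMB2 had 6.29, 5.52 and 2.65 CPM, and LAMC1 had 0.0956. In FT671 the same chains had 5.40, 4.36 and 1.55 CPM per kb, and LAMC1 had 0.219. LAMC1 was thus far below these alpha and beta chains in both groups.

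**Figure D4:**
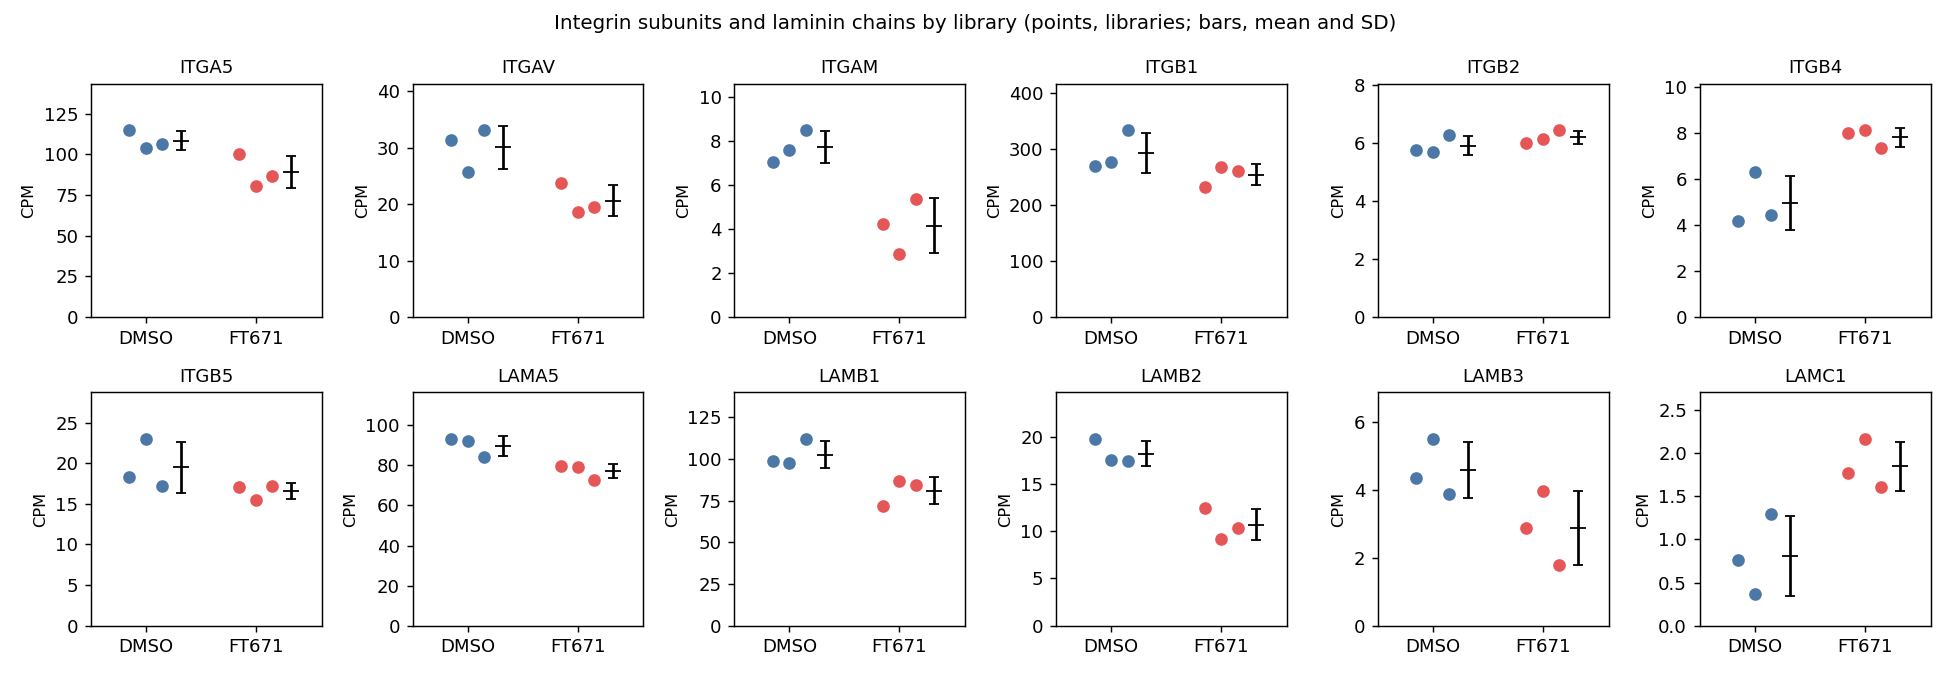
CPM (y axis) is plotted for 7 integrin subunits and 5 laminin chains in each DMSO and FT671 library, with black bars for the mean and SD (n = 3). ITGAV, ITGAM, LAMB1 and LAMB2 are lower in FT671 without overlap, ITGB4 and LAMC1 are higher, and the ITGB2 groups overlap.

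The tetraspanins changed by small amounts, upward for 3 members and downward for 1. TSPAN13, a tetraspanin without a settled function in blood cells, had 25.5, 25.6 and 27.5 CPM in DMSO and 35.1, 42.4 and 33.7 CPM in FT671. It was 1.41-fold higher without overlap (log2 fold change 0.50 ± 0.11 SE, adjusted p = 0.00224) and remained called in all 19 alternative fits. TSPAN4, known from the retraction fibers that form migrasomes, had 21.1, 19.1 and 14.4 CPM in DMSO and 31.3, 23.1 and 25.5 CPM in FT671 (1.41-fold higher, log2 fold change 0.49 ± 0.15 SE, adjusted p = 0.0122). Its call was lost without FT671 replicate 1 (adjusted p = 0.057).

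The TspanC8 tetraspanins, which escort ADAM10 to the cell surface, did not move together. TSPAN33 had 1.66, 2.47 and 1.11 CPM in DMSO and 2.67, 3.61 and 3.49 CPM in FT671 (1.80-fold higher, log2 fold change 0.85 ± 0.30 SE, adjusted p = 0.0279). The call was lost without DMSO replicate 1 (adjusted p = 0.111), FT671 replicate 2 (0.0806) or FT671 replicate 3 (0.117). It was also lost with DESeq2's Wald test (0.074) and after thinning to the smallest total (0.1915). TSPAN14 had 99.6, 98.3 and 98.3 CPM in DMSO and 83.3, 89.7 and 85.1 CPM in FT671 (1.15-fold lower, log2 fold change -0.20 ± 0.07 SE, adjusted p = 0.0383). It was lost in 13 of 19 alternative fits, among them the fits without DMSO replicate 1 (adjusted p = 0.108) or 2 (0.0828), those without FT671 replicate 1 (0.119), 2 (0.0723) or 3 (0.125), and the one with DESeq2 size factors (0.059). TSPAN17 and TSPAN5 had log2 fold changes of -0.18 (95% interval -0.40 to 0.03) and -0.07 (-0.49 to 0.35). TSPAN15 had 30 counts in all and was not tested.

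TSPAN31, the most abundant member per kb, had 122, 118 and 114 CPM in DMSO and 109, 108 and 110 CPM in FT671 (log2 fold change -0.12, 95% interval -0.26 to 0.02, adjusted p = 0.188). Its exons share 1369 bases with CDK4 on the opposite strand, and CDK4 had a mean of 188 CPM. TSPAN3 had a log2 fold change of 0.12 (95% interval -0.06 to 0.30). TSPAN9, TSPAN18 and TSPAN32 lay at 0.894 to 6.66 CPM with intervals that spanned 0. TSPAN12 had 34 counts in all.

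**Figure D5:**
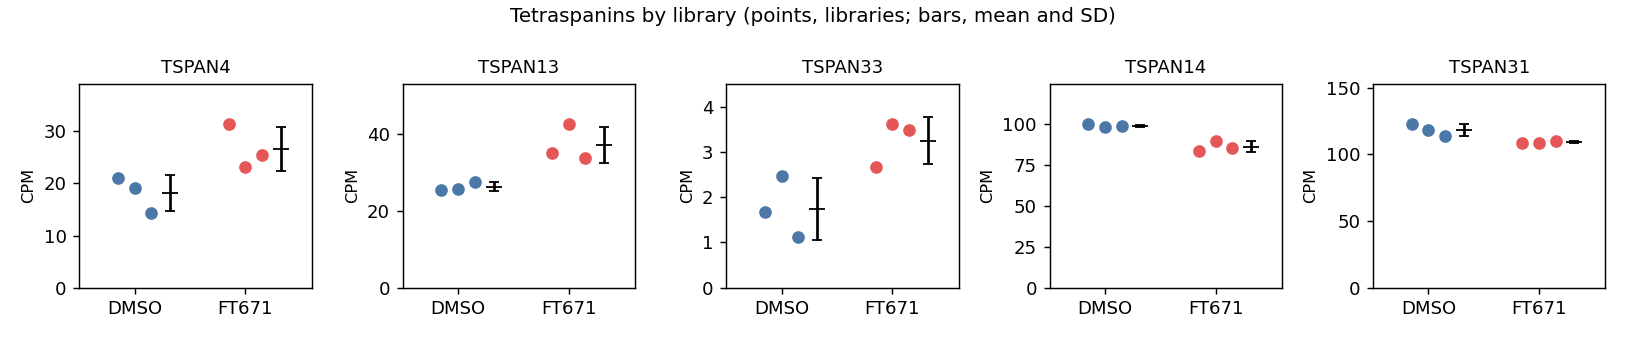
CPM (y axis) is plotted for 5 tetraspanins in each DMSO and FT671 library, with black bars for the mean and SD (n = 3). TSPAN4, TSPAN13 and TSPAN33 are higher in FT671 without overlap, and TSPAN14 and TSPAN31 are slightly lower.

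Tetraspanins that carry other symbols include strong changes. Of 11 such genes 8 were tested, of which 4 fell (50%) and 3 rose (37.5%), beside 26.5% and 23.6% of all genes. Without DMSO replicate 1, FT671 replicate 1 or FT671 replicate 3, 2 of them fell, and without FT671 replicate 2 or with DESeq2's Wald test 1 did. Over all genes, between 2972 and 3399 fell in these fits, of 13301 to 14917 tested. CD82, which restrains integrin-dependent migration, rose (log2 fold change 1.06 ± 0.16 SE, adjusted p = 0.000116), with 6.86, 7.60 and 6.65 CPM in DMSO and 16.4, 16.4 and 12.4 CPM in FT671. CD9, a partner of integrin beta1 complexes, also rose (0.83 ± 0.25, adjusted p = 0.012), although not without FT671 replicate 2 (adjusted p = 0.0772). CD63, a marker of late endosomes and exosomes, fell (-0.45 ± 0.11, adjusted p = 0.00364), as did the photoreceptor tetraspanin ROM1 (-0.78 ± 0.26, adjusted p = 0.0233). The ROM1 call was lost without FT671 replicate 2 or 3 and with DESeq2's Wald test, with an adjusted p of at most 0.129.

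Most of the tetraspanin partner genes fell. Of 5 tested, 4 were lower in FT671 (80%, beside 26.5% of all genes). PTGFRN and IGSF8, immunoglobulin-type partners of CD9 and CD81, had log2 fold changes of -0.80 ± 0.08 SE (adjusted p = 2.4e-06) and -0.75 ± 0.18 SE (adjusted p = 0.00322). The sheddase ADAM10 had 104, 98.1 and 137 CPM in DMSO and 91.9, 89.1 and 79.6 CPM in FT671 (log2 fold change -0.37 ± 0.11 SE, adjusted p = 0.0141). The call of ADAM10 was lost without FT671 replicate 3 (adjusted p = 0.0907) and with the correction for gene length. Under that correction 2 of the 5 partner genes fell, beside 3325 of all 13895 genes. CD46 also fell (-0.27 ± 0.10, adjusted p = 0.0345), a call lost in 6 of 19 alternative fits.

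The intracellular partners of integrins make up the adhesion plaque. Of 31 such genes tested, 14 fell (45.2%) and 4 rose (12.9%), beside 26.5% and 23.6% of all genes. With the correction for gene length 10 fell and 7 rose, beside 3325 and 3848 of all 13895 genes in that fit. With the correction for GC content 13 fell and 8 rose, beside 3742 and 4011 of all 13895 genes. Without FT671 replicate 3, 10 fell and 2 rose, beside 2972 and 2522 of 13315 genes. The largest changes were those of FERMT2 (kindlin-2, log2 fold change -1.32 ± 0.29 SE, adjusted p = 0.00183), BCAR1 (the p130Cas scaffold, -1.02 ± 0.15, adjusted p = 7.96e-05), TNS2 (tensin-2, -1.0 ± 0.24, adjusted p = 0.0031) and CRK (an adaptor bound by BCAR1, -0.97 ± 0.10, adjusted p = 2.98e-06). TLN1, which encodes the talin that activates integrins, had 568, 602 and 586 CPM in DMSO and 404, 376 and 374 CPM in FT671 (log2 fold change -0.61 ± 0.07 SE, adjusted p = 6.58e-06). FERMT3, the kindlin of blood cells, did not pass the test (0.14 ± 0.08, adjusted p = 0.154). The call of FERMT2 was lost after thinning to the smallest total (adjusted p = 0.0791). SLC3A2, which binds beta1 tails and forms an amino acid transporter, rose (0.87 ± 0.07, adjusted p = 5.03e-07). TLN1, FERMT3 and SLC3A2 were named for their roles after their values were seen.

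Genes that modify, fold and process collagen were called about as often as genes in general. Of 25 tested, 8 fell (32%) and 6 rose (24%), beside 26.5% and 23.6% of all genes. LOXL4, a lysyl oxidase that cross-links collagen, fell from 1.59, 2.84 and 1.48 CPM in DMSO to 0.666, 0.361 and 0.804 CPM in FT671 (log2 fold change -1.60 ± 0.43 SE, adjusted p = 0.00666). LOXL4 reached the minimum for testing (about 1.21 CPM) in DMSO libraries alone, so it could enter the test only by being lower in FT671. It is counted among the 8 that fell. The prolyl hydroxylase P3H3 (-0.97 ± 0.18, adjusted p = 0.000614) and the galactosyltransferase COLGALT2 (-0.79 ± 0.07, adjusted p = 1.01e-06) fell as well. PCOLCE, which enhances removal of the procollagen C-propeptide, rose from 23.6, 21.5 and 17.0 CPM to 46.6, 45.8 and 42.5 CPM (1.08 ± 0.12, adjusted p = 6.68e-06). SERPINH1, the collagen chaperone, was at 194 to 210 CPM in all libraries (log2 fold change -0.01 ± 0.07 SE).

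Other matrix components and receptors changed too. Of 16 matrix glycoproteins 4 were tested and 3 fell (75%, beside 26.5% of all genes), namely AGRN (log2 fold change -1.08 ± 0.10 SE, adjusted p = 2.03e-06), HSPG2 (perlecan, -0.36 ± 0.07, adjusted p = 0.001) and FN1 (fibronectin, the ligand of the ITGA5 and ITGB1 receptor, -0.36 ± 0.08, adjusted p = 0.00236). Of 11 tested matrix receptors outside the integrin family, 6 fell (54.5%) and 4 rose (36.4%), beside 26.5% and 23.6% of all genes. BCAM, a receptor for the LAMA5 chain on erythroid cells, rose from 9.28, 10.4 and 13.7 CPM to 28.2, 29.8 and 31.6 CPM (1.49 ± 0.14, adjusted p = 1.6e-06). The syndecan SDC1 rose (1.42 ± 0.28, adjusted p = 0.000858) while its relative SDC3 fell (-1.09 ± 0.07, adjusted p = 9.49e-08). The collagen receptor DDR2 fell (-1.38 ± 0.36, adjusted p = 0.00583). DDR2 reached the minimum for testing (about 1.21 CPM) in every DMSO library but, among FT671 libraries, in replicate 3 alone. It thus entered the test through the group where it is higher, and it is counted among the 6 that fell.

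Counter-receptors of the leukocyte integrins include the ICAM proteins. Of 7 tested integrin ligands of the cell surface, 3 rose (42.9%) and 1 fell (14.3%), beside 23.6% and 26.5% of all genes. ICAM3 (log2 fold change 0.60 ± 0.13 SE, adjusted p = 0.00159), the erythroid ICAM4 (0.48 ± 0.12, adjusted p = 0.00462) and ICAM5 (0.33 ± 0.11, adjusted p = 0.027) were higher, and ICAM1 was lower (-0.22 ± 0.08, adjusted p = 0.0263). The calls of ICAM5 and ICAM1 were lost in 5 and 8 of 19 alternative fits, with an adjusted p of up to 0.10 and 0.118. VCAM1, the ligand of ITGA4, had 0 counts in every library.

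The erythroid identity genes of K562 moved in the same comparison. Of 7 tested K562 markers, 5 fell and 2 rose. The fetal globin gene HBG1 had a log2 fold change of 1.41 ± 0.09 SE. The part of these shifts in the changes of adhesion and matrix genes was not tested.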

How the data were processed

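RNA-seq libraries of K562 cells (3 DMSO, 3 FT671) were analysed, and the ChIP-seq samples of the series were not analysed here. For each library the authors deposited raw read counts per gene, without normalization. They used total RNA depleted of ribosomal RNA, paired-end sequencing and STAR in two-pass mode on hg38. The version of STAR, the annotation release and the strand setting are not given in the sources used here. Of 60609 Ensembl identifiers, 60295 had an entry in GENCODE release 44, which gave symbols, positions and exon lengths, and GENCODE and the RefSeq promoter windows (GRCh38.p14) are on the build of the authors' alignment.

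Genes were filtered with filterByExpr, scaled by TMM and compared by edgeR's quasi-likelihood test (edgeR 4.0.16, R 4.3.3) over all 6 libraries without covariates, with Benjamini-Hochberg adjustment over 13895 genes. Calls were made at an adjusted p under 0.05 and also counted at 1e-05. CPM values use TMM-scaled library sizes. Levels per kb divide them by the summed length of all annotated exons of a gene, so ranks between genes depend on that annotation. Intervals are nominal 95% intervals that apply a normal approximation to an SE taken from the test's F statistic. They can be narrower than the test implies. For TNS1 the interval, 0.051 to 1.24, left out 0 at an unadjusted p of 0.0516 in edgeR's test. The fit was tested on simulated counts with known folds. The members and gene lists were chosen with earlier results of these data known, so their counts are read against those of all genes, and no list was tested as a set.

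The genes given with values in every library are members past 1e-05, the 6 largest changes past 0.05 in each family and the most abundant member per kb. Partner chains are given whether or not they passed. From each list of related genes, the counts and the 4 largest changes past 0.05 are given. Any further gene was named once its values were known, and a few genes are not reported here. The lists comprised the adhesion plaque, collagen biosynthesis, matrix glycoproteins, cell-surface integrin ligands, other matrix receptors, tetraspanins under other symbols, tetraspanin partners, and markers of K562, stromal, lymphoid and endothelial cells. Of the lymphoid markers, CD3D rose (log2 fold change 0.44), CD3E was below the filter and MS4A1 was at 0. Of the endothelial markers, PECAM1 did not pass the test (18.8 to 20.0 CPM), TEK was below the filter, and CDH5 and KDR were at 0.

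Promoter windows were matched by symbol for 78 of 106 members and 29 of the 41 tested, with the first listed start per gene. The labels give replicate numbers only, and the paper describes the samples as independent experiments. Whether replicate numbers pair the libraries is not stated. The same-numbered correlations of deviations from the group means were 0.115, -0.0605 and 0.14, which are too weak and too few to settle it. The main fit therefore used no pairing, and a replicate block was among the alternatives. Alternatives were DESeq2 size factors, library totals alone, DESeq2's Wald test (DESeq2 1.42.0), TMM without the 20 most counted genes, no filter, a minimum of 10 counts in each library, only protein-coding genes, the replicate block, loess corrections (span 0.3) for gene length or GC content with and without the block, thinning to the smallest total, and each library left out.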

Additional observations from a re-analysis of the deposited data

How the results depend on the processing

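Of 1033 values of named genes under the 19 alternatives, 941 kept their direction and side of the threshold, 76 lost the call, 6 gained it and 10 changed sign. The 10 were not called in any fit. They were ITGB2 after thinning (-0.12), COL4A2 after thinning (-0.17) and with libraries left out (range -0.081 to 0.12), and COL18A1. COL18A1 was at 0.061 with the length correction, 0.10 with length correction and block, 0.042 with the GC correction, 0.058 with GC correction and block, and between -0.16 and 0.070 with libraries left out.

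The number of members lower was 7 to 12 with libraries left out (7 without DMSO replicate 1 or FT671 replicate 3), beside 11. The number higher was 4 to 9 with libraries left out (4 without DMSO replicate 1, 5 without FT671 replicate 2 or 3), 5 with at least 10 counts in every library, where 32 members were tested, and 4 after thinning, where 33 were, beside 8. With the replicate block, 12 members were lower and 8 higher, and over all genes 3761 and 3374, against 3687 and 3276 without it. The block brought ITGB1 past 0.05 (adjusted p = 0.0288, and 0.00383 with the GC correction) and took COL6A1 above 1e-05. DMSO replicate 2 correlated best with FT671 replicate 1, so not every library correlated best with its own number. DESeq2's Wald test called 8 lower and 6 higher. The length correction turned the split over all genes from 3687 lower and 3276 higher to 3325 and 3848, and over members from 11 and 8 to 8 and 10.

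The median log2 fold changes of the families are small and moved with the processing, in part because fewer or more members were tested. The integrin median (0.096) was 0.21 with the length correction, -0.17 after thinning and -0.043 to 0.082 with libraries left out. The collagen median (0.012) was -0.087 without a filter, -0.25 with at least 10 counts, 0.14 with the length correction, 0.13 with length correction and block, 0.11 with the GC correction, 0.074 with GC correction and block, -0.29 after thinning and -0.11 to 0.028 with libraries left out. The laminin median (-0.28) was -0.54 without a filter, -0.57 with at least 10 counts, -0.15 and -0.14 with the length correction without and with the block, -0.18 and -0.20 with the GC correction without and with the block, -0.50 after thinning and -0.54 to -0.25 with libraries left out. The tetraspanin median (0.12) was -0.064 with at least 10 counts, 0.24 with length correction and block, and -0.061 to 0.20 with libraries left out. The cause of the moves under the length and GC corrections was not tested. Depth limits the genes near the floor, such as LAMC1 and COL6A1, whose control libraries held 4 to 13 counts.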
